A study of Mus musculus with 6 samples.

Results

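The Hippo pathway effectors described here are 10 genes fixed by name, namely the coactivators *Yap1* (YAP) and *Wwtr1* (TAZ), the transcription factors *Tead1*, *Tead2*, *Tead3* and *Tead4*, the kinases *Lats1* and *Lats2*, and the target genes *Amotl2* and *Ankrd1*. Of these, 9 had a row among the 27506 genes of the count table, and all 9 passed the filter on low counts. *Ankrd1* was not analysed here. RNA was sequenced from dental pulp of the mandibular first molar of C57BL/6 mice at P3.5 (3.5 days after birth), when root formation begins. Both groups carried 2 floxed alleles of *Ror2*, a receptor for Wnt ligands, and 3 control (Ror2fl/fl) and 3 mutant (Osr2-Cre;Ror2fl/fl) libraries were compared to ask which transcripts differ after loss of *Ror2*. In the mutant mice, Cre recombinase driven by *Osr2* removes *Ror2* from the dental mesenchyme and the alveolar bone, and leaves it in the dental epithelium. The labels do not say whether each library came from 1 animal, so p-values measure the spread between these libraries.

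The Hippo pathway restrains tissue growth. The MST kinases, helped by the scaffold SAV1, activate the LATS kinases with their cofactor MOB1, and LATS kinases phosphorylate YAP and TAZ, which are then held in the cytoplasm or degraded. When they are not phosphorylated, YAP and TAZ enter the nucleus and bind TEAD factors, which recognize DNA at a core motif with the letters GGAATG. Since the pathway acts mainly through phosphorylation, transcript levels of its components do not report its activity.

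The motif GGAATG was searched on both strands (CATTCC on the other) in promoter windows from RefSeq (GRCm38.p6), each running from 250 bases before to 50 bases after an annotated transcript start. Of the 10 genes, 8 had a window and 6 of these, or 75%, held the motif in at least 1 of their windows, against 16.6% of all 27025 genes with a window. The 6 genes were *Yap1*, *Wwtr1*, *Tead3*, *Lats2*, *Amotl2* and *Ankrd1*. Of these, *Lats2*, *Amotl2* and *Ankrd1* belong to a published set of YAP and TAZ target genes. Of the other genes of that set, 12 had a window and 4 of these, or 33.3%, held the motif. The difference between these shares was not tested. A match is a description of letters and not a binding site, and genes such as *Wwtr1*, *Tead3* and *Lats2* have more than 1 window. Stretches of 60 bases around the motif are shown for the genes in which it lies before the start, with the motif in capitals and the strand of the gene read 5′ to 3′. They are shown because they carry the letters that TEAD factors recognize.
Yap1, chr9:8004705-8004764, minus strand: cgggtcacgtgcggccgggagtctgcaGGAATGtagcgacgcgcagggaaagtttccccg
Wwtr1, chr3:57576014-57576073, minus strand: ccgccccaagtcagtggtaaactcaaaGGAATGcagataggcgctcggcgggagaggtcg
Tead3, chr17:28350955-28351014, minus strand: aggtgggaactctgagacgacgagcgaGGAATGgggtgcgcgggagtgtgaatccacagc
Tead3, chr17:28350682-28350741, minus strand: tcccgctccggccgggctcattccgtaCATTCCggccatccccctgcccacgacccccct
Amotl2, chr9:102717712-102717771, plus strand: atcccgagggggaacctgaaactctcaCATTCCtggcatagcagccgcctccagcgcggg
Ankrd1, chr19:36119935-36119994, minus strand: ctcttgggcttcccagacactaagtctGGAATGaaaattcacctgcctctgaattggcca
The motif began 141 bases before the start in *Yap1*, 65 in *Amotl2* and 123 in the *Ankrd1* stretch shown. *Ankrd1* held another 210 bases before its start. The second *Tead3* stretch, marked 114 bases before its start, holds another CATTCC in lower case, which begins 123 bases before the start. In *Lats2* it lay 4 bases past the start and is not shown.

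The libraries held between 56134770 and 62628940 estimated counts. *Ror2* itself was measured at 38.2, 36.2 and 36.7 TMM-scaled CPM (counts for each 1e6 counts of the library) in the controls and at 27.9, 28.1 and 26.3 CPM in the mutants, with no overlap (log2 fold change -0.43, SE 0.09, edgeR adjusted p = 0.0134). Without control library 2 or 3 the adjusted p-value of *Ror2* was 0.0664 or 0.0752. The tissue was not pulp mesenchyme alone, because 8 markers of dental epithelium, including the enamel matrix genes *Amelx*, *Ambn* and *Enam*, summed to between 171985 and 192060 CPM in control and between 185485 and 255676 CPM in mutant libraries. All 7 of the dental mesenchyme markers were present as well. The summed level of 9 skeletal muscle markers did not overlap between the groups, with 12.1 to 39.9 CPM in control and 2.74 to 3.80 CPM in mutant libraries, and all 7 of those tested were lower. The summed level of 4 markers of proliferating cells was 108 to 117 CPM in control and 68.4 to 85.2 CPM in mutant libraries. The part of these cell types in the results that follow was not tested, and in bulk tissue fewer cells of a type and less RNA per cell cannot be told apart. The sample titles carry the letters WW for control library 1, OW for control libraries 2 and 3, and OR for the mutant libraries. What the letters stand for is not given in the sources used here, and the genotype label is the same for all 3 controls. Sample identifiers differ in series between the groups, so that a batch following the genotype cannot be told apart from it.

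At an adjusted p-value under 0.05, *Tead3* rose and *Tead1* fell in mutant libraries, whereas the other 7 genes did not pass the threshold (quasi-likelihood test of edgeR, Benjamini-Hochberg over 19330 genes). This was 1 of 9 genes higher, where 10.4% of all genes tested were, and 1 of 9 lower, where 9.84% were. Together it was 22.2% of the 9 genes, near the background of 20.2% of all genes tested. The median log2 fold change of the 9 genes was -0.19, and that of all genes was 0.01. Mutant library 2 held the lowest mutant value of 7 of these genes and the highest of the other 2, *Tead2* and *Tead3*. How often this held over all genes was not counted. Over all genes, the mean chi-square per gene of the counts was 269.8 and 218.6 between mutant library 2 and mutant libraries 1 and 3. Between mutant libraries 1 and 3 it was 61.65, and between pairs of control libraries it was 122.5, 150.9 and 170.3.

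**Figure D1:**
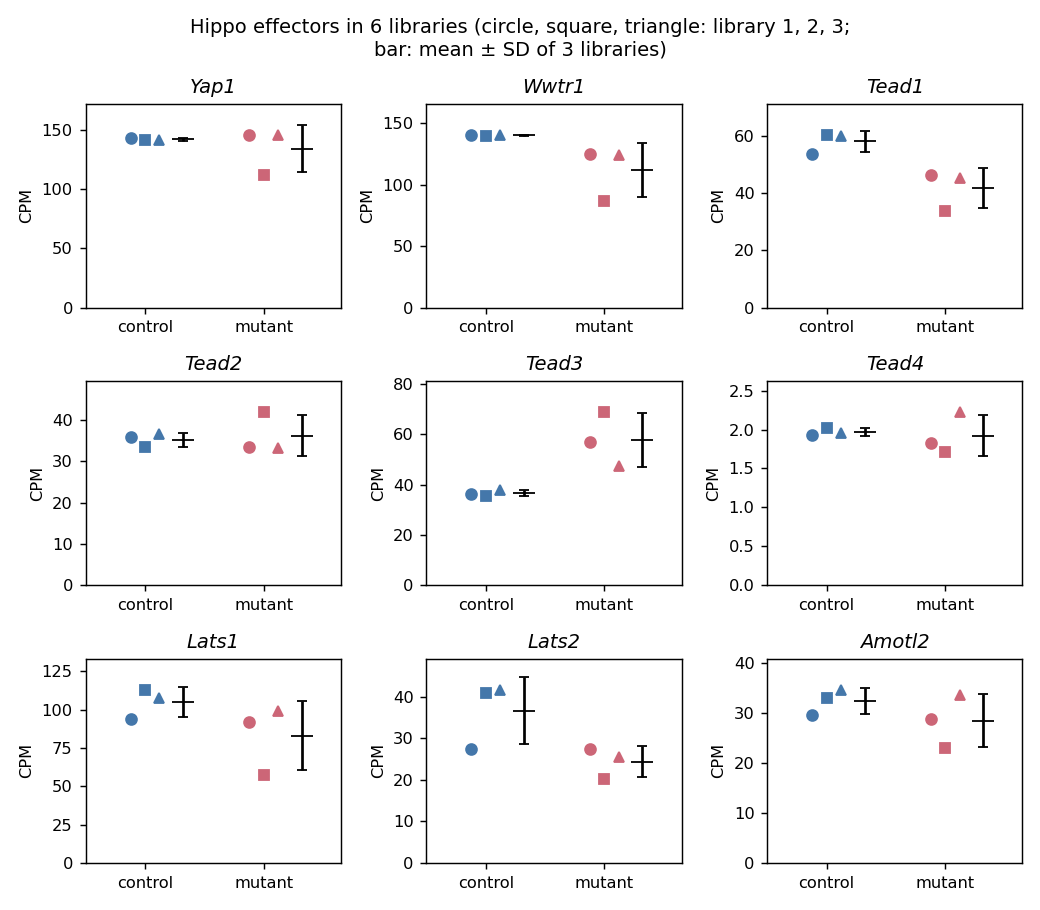
TMM-scaled CPM (y axis, from 0) of 9 Hippo effectors in 3 control and 3 mutant libraries; symbols mark library 1, 2 and 3 of each group and bars show the mean ± SD. The groups are separate for *Tead1*, *Tead3* and *Wwtr1* and overlap for the other genes, and mutant library 2 (square) lies at one end of the mutant values throughout.

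*Tead3* (ENSMUSG00000002249.21; mm10 chromosome 17, 28331671 to 28350817, minus strand) encodes a TEAD factor. Its level was 36.2, 35.4 and 37.8 CPM in control libraries 1, 2 and 3, and 56.9, 68.6 and 47.4 CPM in mutant libraries 1, 2 and 3. Every mutant library lay above every control library, and the mutant libraries were spread more widely. The change was a log2 fold change of 0.66 (SE 0.13), or 1.58-fold, and edgeR gave an adjusted p of 0.0154. The increase kept the threshold without mutant library 2 (0.53, adjusted p = 0.0142 from edgeR) and with an offset for GC content and gene length (0.50, adjusted p = 0.0311). It lost the threshold without control library 2 (0.63, adjusted p = 0.0764 from edgeR) and without control library 3 (0.68, adjusted p = 0.0667).

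*Tead1* (ENSMUSG00000055320.17; chromosome 7, 112679318 to 112906807, plus strand) encodes the TEAD factor also known as TEF-1. It was measured at 53.8, 60.3 and 60.0 CPM in the controls and at 46.3, 33.7 and 45.2 CPM in the mutants. The groups did not overlap. Its log2 fold change was -0.48 (SE 0.13, adjusted p = 0.0406 from edgeR), or 28.1% lower. The call was lost without mutant library 1 (-0.56, adjusted p = 0.0534 from edgeR) or any 1 control library (-0.54 to -0.46, adjusted p from 0.0624 to 0.141), and with the offset for GC content and length the value was -0.21 (adjusted p = 0.106).

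*Tead2* (ENSMUSG00000030796.17; chromosome 7, 45215753 to 45233644, plus strand), a TEAD factor best known from the early embryo, had 35.8, 33.4 and 36.6 CPM in the controls and 33.6, 41.9 and 33.3 CPM in the mutants. The groups overlapped, and the log2 fold change of 0.04 had a 95% interval from -0.22 to 0.30 (edgeR, adjusted p = 0.816). *Tead4* (ENSMUSG00000030353.15; chromosome 6, 128224288 to 128300823, minus strand), known for its role in the trophectoderm and in muscle, was the lowest of the family, with 1.93, 2.02 and 1.96 CPM in the controls and 1.83, 1.72 and 2.22 CPM in the mutants. Between 99 and 131 counts per library lay behind these values, and the log2 fold change was -0.04 with a 95% interval from -0.47 to 0.40 (edgeR, adjusted p = 0.907). The groups overlapped for both genes.

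**Figure D2:**
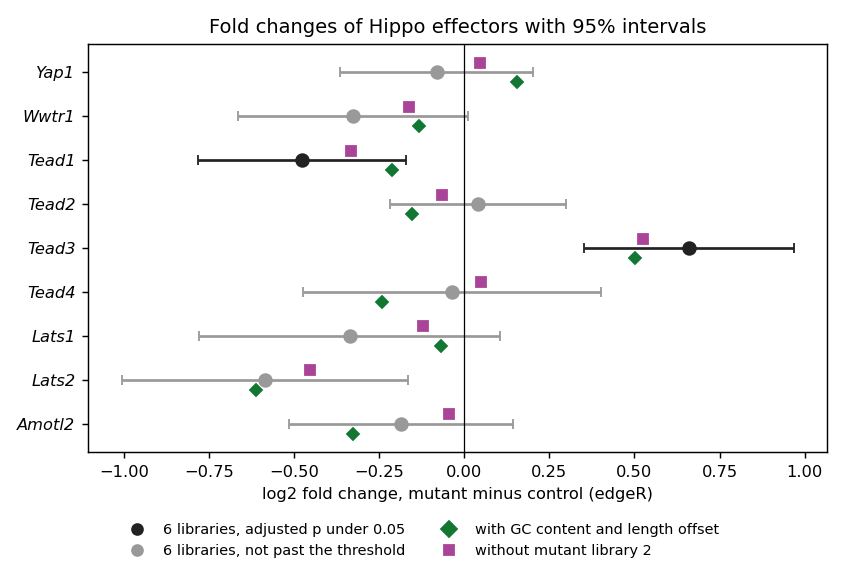
Log2 fold change of 9 Hippo effectors (x axis, mutant minus control, edgeR) with 95% intervals as bars; circles give the fit on 6 libraries, diamonds the fit with an offset for GC content and length, and squares the fit without mutant library 2. *Tead3* stays above 0.5 in all of them, while *Tead1* moves from -0.48 to -0.33 and -0.21.

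*Tead3* and *Tead2* have transcripts of like GC content, 58.1% and 57.9%, and their ratio within a library does not depend on library scaling. The ratio of *Tead3* to *Tead2* counts, chosen after the values were seen, was 1.01, 1.06 and 1.03 in control and 1.70, 1.64 and 1.42 in mutant libraries. The ratio restates the values of both genes given above and was not tested.

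Levels of different genes were compared per exonic length as RPKM (the CPM divided by the exonic length in kilobases). The 4 *Tead* genes together reached 17.4, 17.3 and 18.2 RPKM in control and 19.4, 21.9 and 18.0 RPKM in mutant libraries. These ranges overlapped, and the log2 of the summed CPM differed by 0.06 (two-sided exact permutation test, p = 0.4). Within this sum, the share of *Tead3* went from 30.9% ± 0.243 to 43.2% ± 3.68 (SD, n = 3 libraries per group), while that of *Tead1* went from 24.3% ± 1.48 to 15.8% ± 3.92. For these genes the shares of the groups did not overlap, with a two-sided exact permutation p of 0.1 each, the smallest possible. The shares of a library sum to 100%, so they are not independent of each other. The share of *Tead2* went from 41.8% ± 1.33 to 38.2% ± 1.92. It did not overlap either, with 40.4% to 43.0% in control and 36.1% to 39.9% in mutant libraries (two-sided exact permutation test, p = 0.1). The level of *Tead2* itself overlapped between the groups, so a share can separate without a separate level. *Tead4* made up 3.11% ± 0.139 in control and 2.74% ± 0.638 in mutant libraries. Per length, *Tead2* led the family in every control library and *Tead3* in every mutant library, in mutant library 3 by 39.3% against 38.7%.

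**Figure D3:**
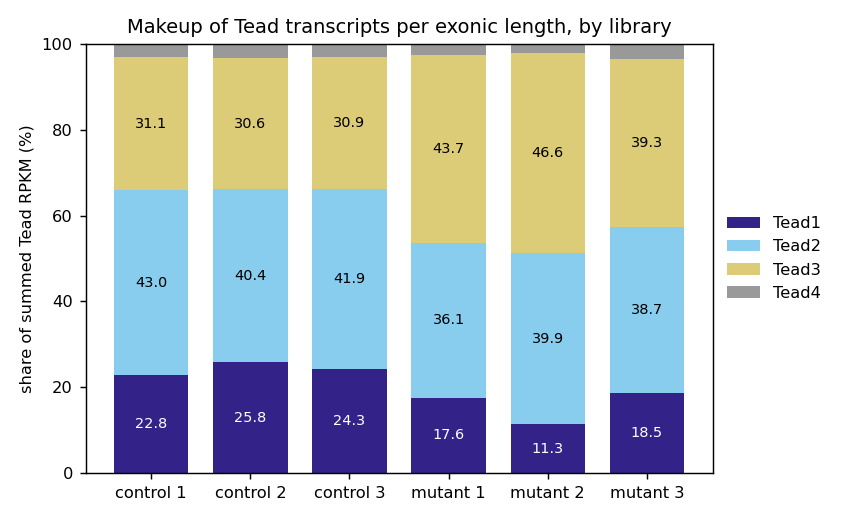
Share of each *Tead* gene in the summed *Tead* RPKM (y axis, %) in each of 6 libraries. *Tead3* takes 30.6% to 31.1% in control and 39.3% to 46.6% in mutant libraries, and *Tead1* takes 22.8% to 25.8% and 11.3% to 18.5%.

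*Yap1* (ENSMUSG00000053110.13; chromosome 9, 7931999 to 8004596, minus strand) was measured at 143, 141 and 141 CPM in the controls and at 145, 111 and 146 CPM in the mutants. Control libraries were tightly grouped, and mutant libraries 1 and 3 lay just above them, with library 2 below. The log2 fold change was -0.08 with a 95% interval from -0.36 to 0.20 (edgeR, adjusted p = 0.658). *Wwtr1* (ENSMUSG00000027803.14; chromosome 3, 57455649 to 57575910, minus strand), which encodes TAZ, had 140, 140 and 141 CPM in the controls and 125, 86.4 and 124 CPM in the mutants. Every mutant library lay below every control library, as did 22.1% of all genes tested. For *Tead3* the mutant libraries all lay above, as for 22.6% of genes, and in all the groups did not overlap for 3 of 9 effectors (33.3%) against 44.7% of genes. The log2 fold change of -0.33 (SE 0.15) did not pass the threshold (edgeR, adjusted p = 0.142), and without mutant library 2 it was -0.16 (adjusted p = 0.158). With the offset for GC content and length it was -0.13 (adjusted p = 0.485), and with the offset and without mutant library 2 it was near 0, at -0.000768 (adjusted p = 0.995).

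The balance of the coactivators was read as the ratio of *Yap1* to *Wwtr1* within each library, which does not depend on library scaling. The log2 ratio of their CPM was 0.03, 0.02 and 0.00 in control and 0.21, 0.37 and 0.23 in mutant libraries. All mutant libraries lay above all control libraries, by 0.25 on average (two-sided exact permutation test, p = 0.1, the smallest possible). Without mutant library 2 the difference was 0.21. Per exonic length, *Wwtr1* exceeded *Yap1* in every library, with a ratio of *Yap1* to *Wwtr1* RPKM of 0.522 ± 0.00484 in control and 0.623 ± 0.0363 in mutant libraries (SD, n = 3).

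*Lats2* (ENSMUSG00000021959.16; chromosome 14, 57689662 to 57758388, minus strand) encodes a kinase that phosphorylates YAP and TAZ and is itself one of their target genes. Its level was 27.4, 41.0 and 41.7 CPM in the controls and 27.6, 20.2 and 25.6 CPM in the mutants. Control library 1 lay within the mutant range, and the other control libraries, which share the letters OW, lay above it. The log2 fold change of -0.59 (SE 0.18) fell just short of the threshold (edgeR, adjusted p = 0.0548), and with the offset for GC content and length it was -0.61 (adjusted p = 0.0442). It also passed without control library 1 (-0.77, adjusted p = 0.0248). Of the 75-base stretches of *Lats2*, 40.5% also occur in the overlapping gene *Gm49361*, and the sum of both changed by -0.55 (edgeR, adjusted p = 0.115). That fit sums every gene with its partners and called fewer genes, 1618 higher and 1323 lower. *Tead1*, which has no partner, had an adjusted p of 0.0782 in it (edgeR).

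*Lats1* (ENSMUSG00000040021.13; chromosome 10, 7681214 to 7716460, plus strand), the paralog of *Lats2*, had 94.2, 113 and 107 CPM in the controls and 92.2, 57.5 and 99.2 CPM in the mutants. *Lats1* values of both groups overlapped, and the fitted log2 change of -0.34 had a 95% interval from -0.78 to 0.11 (edgeR, adjusted p = 0.231). The log2 ratio of *Lats1* to *Lats2* was 1.53 ± 0.22 in control and 1.74 ± 0.22 in mutant libraries (SD, n = 3; two-sided exact permutation test, p = 0.3). *Amotl2* (ENSMUSG00000032531.15; chromosome 9, 102716672 to 102733418, plus strand), a YAP target whose product binds YAP at cell junctions, had 29.7, 33.0 and 34.7 CPM in the controls and 28.9, 23.0 and 33.6 CPM in the mutants. Its log2 fold change of -0.19 had a 95% interval from -0.52 to 0.14 (edgeR, adjusted p = 0.365).

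The levels per exonic length span a wide range. In control libraries *Wwtr1* led with 29.3 ± 0.121 RPKM, followed by *Yap1* with 15.3 ± 0.128 and *Lats1* with 14.4 ± 1.31 RPKM (SD, n = 3). *Yap1* and *Lats1* overlapped. *Tead2* followed with 7.36 ± 0.349 RPKM, above *Tead3* (5.44 ± 0.180), *Lats2* (5.26 ± 1.15) and *Amotl2* (5.16 ± 0.402), which overlapped in this order. *Tead1* had 4.28 ± 0.273 RPKM and *Tead4* 0.547 ± 0.0140 RPKM. In mutant libraries the order was the same for *Wwtr1*, *Yap1* and *Lats1*, and *Tead3* came next with 8.59 ± 1.58 RPKM. Its range overlapped those of *Lats1* (11.4 ± 3.06) and *Tead2* (7.57 ± 1.01).

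The other genes of the pathway were taken as a list of 33 genes chosen by role, of which 32 were tested and *Vgll1* was not analysed here. Of the 32 genes, 2 rose, 4 fell and 26 did not pass the threshold (18.8% called, against 20.2% of all genes tested). Their median log2 fold change was -0.15. The groups did not overlap for 16 of the 32 genes (50%), against 44.7% of all genes tested.

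In the kinase core, *Stk3* and *Mob1b* fell, and *Stk4*, *Sav1* and *Mob1a* did not pass the threshold in edgeR. DESeq2's Wald test, which called 2699 of all 19330 genes lower, called *Mob1a* lower as well. *Stk3*, which encodes the kinase MST2, had 57.6, 60.2 and 62.6 CPM in the controls and 36.1, 29.6 and 43.3 CPM in the mutants, which edgeR fitted at -0.73 in log2 (SE 0.14, adjusted p = 0.012). Its paralog *Stk4* (MST1) was at 54.6 ± 1.40 CPM in control and 49.1 ± 8.23 CPM in mutant libraries (adjusted p = 0.416). The ratio of *Stk3* to *Stk4* counts, chosen after the values were seen, was 1.07, 1.12 and 1.11 in control and 0.669, 0.747 and 0.805 in mutant libraries. *Mob1b*, a cofactor of the LATS kinases, went from 58.3 ± 4.76 to 40.8 ± 6.43 CPM, which edgeR fitted at -0.51 in log2 (adjusted p = 0.0313). With the offset for GC content and length, *Stk3* was at -0.33 (adjusted p = 0.0811) and *Mob1b* at 0.06 (adjusted p = 0.667), so that the direction of *Mob1b* depended on it. Both also lost the threshold without control library 2 and without control library 3, with adjusted p-values from 0.053 to 0.124.

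Among 13 upstream regulators, *Fat4* and *Dchs1* fell, and *Mink1* and *Rassf1* rose. DESeq2's Wald test called the kinase gene *Taok1* lower as well, which edgeR fitted at -0.56 in log2 (adjusted p = 0.0558). *Fat4* and *Dchs1* encode atypical cadherins that bind each other across neighboring cells. *Fat4* had 55.8, 95.3 and 88.6 CPM in the controls and 44.3, 27.8 and 47.4 CPM in the mutants, which edgeR fitted at -1.004 in log2 (SE 0.25, adjusted p = 0.0272). *Dchs1* went from 89.1 ± 17.6 to 59.1 ± 8.52 CPM, which edgeR fitted at -0.59 in log2 (adjusted p = 0.0414). With the offset for GC content and length, *Fat4* was at -0.83 (adjusted p = 0.0206) and *Dchs1* at -0.67 (adjusted p = 0.0203).

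*Mink1* encodes a kinase of the MAP4K family, which can activate LATS kinases. Its level was 96.8, 92.6 and 96.9 CPM in the controls and 130, 173 and 128 CPM in the mutants, which edgeR fitted at 0.59 in log2 (SE 0.13, adjusted p = 0.0207). *Rassf1*, which encodes a scaffold for MST kinases, went from 21.4 ± 2.25 to 28.4 ± 2.53 CPM, which edgeR fitted at 0.41 in log2 (adjusted p = 0.0425). It shares 38.7% of its 75-base stretches with *Gm9917*, and the sum of both was not past the threshold (0.40, adjusted p = 0.0832 from edgeR). The fit with summed genes called fewer genes throughout, and the part of *Gm9917* in the lost call was not tested. Without control library 2 or control library 3, none of the 4 regulators called by edgeR passed the threshold, with adjusted p-values from 0.0905 to 0.154. *Mink1* and *Rassf1* also lost it without control library 1 (adjusted p = 0.0565 and 0.107), *Fat4*, *Dchs1* and *Rassf1* without mutant library 1 (0.058, 0.0507 and 0.0748), *Dchs1* and *Rassf1* without mutant library 2 (0.0805 and 0.0613), and *Dchs1* without mutant library 3 (0.0728).

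None of the 9 genes whose products bind YAP, TAZ or LATS or mark YAP and TAZ for degradation passed the threshold in either direction in edgeR, and 3 of 9 had an unadjusted p under 0.05, as had 7410 of all 19330 genes tested. DESeq2's Wald test called 1 of the 9 as lower, *Amot*, which encodes the YAP-binding protein angiomotin. Of all 19330 genes, 2699 were lower and 2711 higher past the threshold in that test. The TEAD cofactors *Vgll2*, *Vgll3* and *Vgll4* and the LATS-related kinases *Stk38* and *Stk38l* passed it in neither tool, and of these *Stk38l* alone had an unadjusted p under 0.05 in edgeR. *Amotl1*, the most abundant of these in CPM, was at 406 ± 10.6 CPM in control and 323 ± 54.4 CPM in mutant libraries (edgeR, adjusted p = 0.121). *Vgll4*, a TEAD cofactor that competes with YAP, was at 71.4 ± 1.61 and 78.1 ± 5.44 CPM (adjusted p = 0.315).

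Downstream, a published set of 22 YAP and TAZ target genes includes *Amotl2*, *Lats2* and *Ankrd1*, and the other 19 were counted here. No gene of the 19 rose and 3 fell past the threshold (15.8%, against 9.84% of all genes tested that fell). In DESeq2's Wald test no gene rose and 4 fell, the same 3 and *Igfbp3*, which encodes a binding protein of insulin-like growth factors. That test called more genes throughout, with 2711 higher and 2699 lower of all 19330. In edgeR, 7 of the 19 had an unadjusted p under 0.05, as had 7410 of all 19330 genes tested. The fitted value was below 0 for 16 of the 19 genes, a larger share than the 9536 of all 19330. The difference between these shares was not tested. The median log2 fold change of the 19 was -0.23, and that of all genes was 0.01. The groups did not overlap for 9 of the 19 (47.4%), near the 44.7% of all genes tested. The set was defined in tumors, and whether these genes follow YAP in dental pulp was not tested.

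The genes that fell were *Rbms3*, *Dock5* and *Myof*. *Rbms3*, which encodes an RNA-binding protein, had 11.8, 17.2 and 15.9 CPM in the controls and 9.96, 8.27 and 8.25 CPM in the mutants, which edgeR fitted at -0.76 in log2 (SE 0.16, adjusted p = 0.0182). *Dock5*, an exchange factor for Rac, went from 10.6 ± 1.96 to 6.92 ± 0.563 CPM, which edgeR fitted at -0.61 in log2 (adjusted p = 0.0338). *Myof*, which encodes the membrane repair protein myoferlin, went from 85.0 ± 9.56 to 60.0 ± 11.2 CPM, which edgeR fitted at -0.50 in log2 (adjusted p = 0.0496). All 3 calls were lost with the offset for GC content and length (-0.35, -0.44 and -0.33, adjusted p = 0.122, 0.0557 and 0.0606), and none passed without control library 2 or control library 3. Without mutant library 2 only *Rbms3* of them kept the threshold (adjusted p = 0.0347), while without control library 1 or mutant library 3 *Myof* alone lost it (0.0601 and 0.0755) and without mutant library 1 *Dock5* alone did (0.0683).

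The best known targets, *Ccn1* and *Ccn2*, named after their values were seen, encode secreted matrix proteins. *Ccn2* was measured at 28.8, 32.6 and 36.3 CPM in the controls and at 40.9, 37.6 and 42.5 CPM in the mutants, a log2 fold change of 0.31 that did not pass the threshold (edgeR, adjusted p = 0.0788). *Ccn1* had 7.19, 8.94 and 10.9 CPM in the controls and 10.0, 6.90 and 12.6 CPM in the mutants (adjusted p = 0.723). For *Ccn2* the groups did not overlap, and for *Ccn1* they did.

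Base composition moved with the genotype across all genes. Genes with a GC content of 38 to 42% had a median log2 fold change of -0.28, those of 46 to 50% had -0.04, and those of 58 to 62% had 0.23 (edgeR's fit, 1955, 4187 and 1398 genes). *Tead3*, at 58.1% GC, had a log2 fold change of 0.66 and lay above the upper quartile of its GC class, 0.51, while *Tead2* and *Tead4* of like GC content lay at 0.04 and -0.04. *Tead1*, at 46.5% GC, lay at -0.48, below the lower quartile of its class, -0.31. *Lats2*, at 52.2% GC, lay at -0.59 in a class whose lower quartile was -0.17. With the offset for GC content and length, the effectors that were not called lay at 0.16 for *Yap1*, -0.13 for *Wwtr1*, -0.15 for *Tead2*, -0.24 for *Tead4*, -0.07 for *Lats1* and -0.33 for *Amotl2*, none past the threshold. *Yap1* and *Tead2* changed sign with it. *Ror2* was at -0.64 with the offset (edgeR, adjusted p = 0.00207), *Mink1* at 0.43 (adjusted p = 0.0466) and *Rassf1* at 0.61 (adjusted p = 0.0177).

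**Figure D4:**
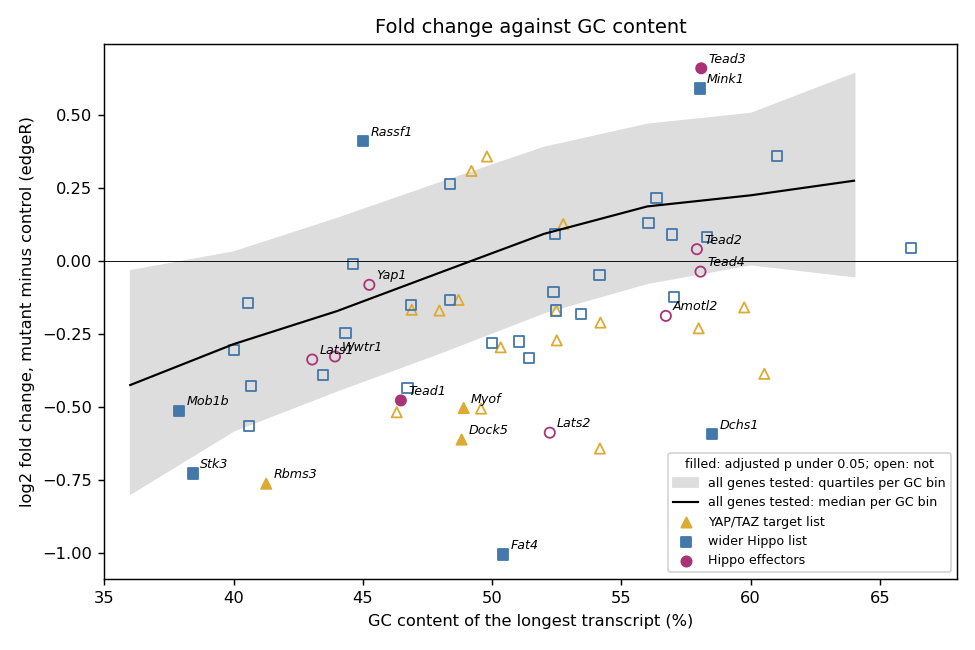
Log2 fold change (y axis, mutant minus control) against the GC content of the longest transcript (x axis, %) for Hippo effectors, the wider Hippo list and YAP/TAZ targets; the line and band give the median and quartiles of all genes tested in GC classes. The line runs from -0.42 in the lowest to 0.28 in the highest class. Of the genes called, *Tead3*, *Mink1* and *Rassf1* lie above the band. *Tead1*, *Stk3*, *Fat4*, *Dchs1*, *Rbms3*, *Dock5* and *Myof* lie below it, as do the effectors *Lats2* and *Amotl2*, which were not called.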

How the data were processed

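Per the labels, reads were processed with STAR 2.6.1d and Partek on mm10, whereas the paper's methods name TopHat 2 and counting of single-end reads over exons. The authors deposited estimated counts per gene without normalization, of which 48.7% were whole, and a table of normalized signal, where 1 was added to the estimated counts before scaling each library by a single factor, without division by length. The counter, its handling of shared reads and its use of strand are not given in the sources used here. The 6 sample columns of the count table that the labels do not name were not used.

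Estimated counts were rounded and scaled with TMM, genes were kept by filterByExpr, and groups were compared with edgeR 4.0.16 (quasi-likelihood test) in R 4.3.3 without a block. Fold changes are edgeR's fitted values. The 95% intervals use the standard error and degrees of freedom of that test. Single ratios and sums used two-sided exact permutation tests, on log2 CPM with a prior count of 2 or, for shares, on percent. RPKM used the union of exons in GENCODE M21, whose gene starts equal those of the deposited table for 27506 genes. GC content is that of the longest transcript. The offset smoothed each library's deviation over GC content and then exonic length (span 0.3). Genes were called as sharing sequence with at least 20 common stretches of 75 bases. Alternatives used DESeq2 1.42.0 and limma 3.58.1 besides edgeR. All effectors, all genes of the lists that edgeR called without block or offset in all 6 libraries, and *Ror2* are named. The genes and lists were chosen with earlier results of these data known.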

Additional observations from a re-analysis of the deposited data

How the results depend on the processing

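The *Tead3* increase kept its direction under all 18 alternatives and the threshold under 15. With a replicate block and the GC and length offset it was 0.49 (edgeR adjusted p = 0.0662), and leaving out 1 library gave 0.53 to 0.78. The *Tead1* decrease kept its direction under all 18 and the threshold under 8. It was -0.48 without the filter on low counts or summed with genes sharing sequence, -0.21 with the GC and length offset, -0.49 with the replicate block, -0.22 with block and offset, -0.17 with the offset and without mutant library 2 (an alternative chosen after seeing the data), and -0.56 to -0.33 with 1 library left out. *Lats2* passed the threshold with DESeq2's Wald test (-0.59) and with library size alone or the offset (-0.61 each), with -0.77 to -0.45 when 1 library was left out. Of the values that were not called, *Yap1* became 0.16 with the offset, 0.16 with block and offset and 0.20 with the offset and without mutant library 2 (-0.15 to 0.045 with 1 library left out), and *Tead2* became -0.15, -0.16 and -0.23 (-0.066 to 0.094). *Lats1* became 0.087 with the offset and without mutant library 2, and *Tead4* ran from -0.16 to 0.048 with 1 library left out. *Mob1b* became 0.059 with the offset, 0.056 with block and offset and 0.10 with the offset and without mutant library 2. *Wwtr1* and *Amotl2* stayed below 0 and short of the threshold under all 18, although *Wwtr1* shrank to -0.13 with the offset and to -0.000768 with the offset and without mutant library 2. Direction was also kept by the Yap1 to Wwtr1 and Lats1 to Lats2 ratios and the Tead sum under their 10. Their exact tests cannot reach a p-value under 0.05 with so few libraries, so the side of the threshold tells nothing here.

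Effectors called higher numbered 0 with block and offset and 0 to 1 with 1 library left out. Those called lower numbered 2 with DESeq2 or library size alone, 0 without the filter, with summed genes, with the block, with block and offset and with the offset and without mutant library 2, and 0 to 1 with 1 library left out. In the wider list, 1 rose with library size alone, without the filter and with block and offset, 0 with the block and 0 to 2 with 1 library left out, while 7 fell with DESeq2 or library size alone, 2 with the offset, the block, both, or the offset without mutant library 2, and 0 to 5 with 1 library left out. Of the YAP and TAZ targets, 1 fell with summed genes, the block, or the offset without mutant library 2, 0 with block and offset, and 0 to 3 with 1 library left out. Over all genes, DESeq2 called 2711 higher and 2699 lower, and library size alone 1644 and 2070. The block left 1012 higher and 1001 lower, block and offset 805 and 723, and the offset without mutant library 2 left 1225 lower. Leaving out 1 library gave 458 to 2520 higher and 414 to 2481 lower. The share of calls that were higher was 51.3%, and 44.3% with library size alone. The causes were not tested.

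The paper's methods speak of 3 pairs of samples, but the sample labels name no pairs. Deviations of same-numbered libraries correlated at -0.10, -0.08 and -0.004, and no library correlated best with its own number. Deviations from the mean of 3 libraries are tied to each other, so these correlations cannot decide whether libraries were paired. With 3 libraries per group, the smallest two-sided exact permutation p is 0.1, and *Tead4*, at 99 to 131 counts, had the widest interval of the *Tead* genes.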
